A study of Homo sapiens with 4 samples.

Results

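The cytosolic heat shock genes examined here were 10 genes taken by symbol, a choice made with earlier results of these data known, HSPA1A, HSPA1B, HSPA8, HSPA4, HSPH1, DNAJB1, HSP90AA1, HSP90AB1, HSPB1 and BAG3. All 10 were found among the 18917 genes counted by RNA-seq in WT and THUMPD1 KO cells. The cells were HEK-293T, an immortalized human embryonic kidney line that the sample labels list as HEK293, and the KO was made by CRISPR-Cas9 with a pair of guides followed by single-cell sorting. THUMPD1 is the adaptor protein with which the acetyltransferase NAT10 places N4-acetylcytidine on tRNA. There were 2 WT and 2 KO libraries of total RNA, all from cells grown with 10% serum and 2 mM glutamine and given no heat or other stress treatment by the labels. Genotype and clone cannot be told apart in this design, and the labels do not say whether the libraries of a genotype came from separate cultures, so that the p-values measure the spread between these libraries only.

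Heat shock proteins are molecular chaperones that hold, fold and release other proteins. In the cytosol, HSP70 proteins bind unfolded stretches with the help of J-domain partners such as DNAJB1 and let go of them with the help of nucleotide exchange factors such as HSPH1, HSPA4 and BAG3, and HSP90 proteins act later, on nearly folded clients such as kinases and steroid receptors. Small heat shock proteins such as HSPB1 hold unfolded protein without using ATP. The transcription factor HSF1 drives many of these genes when unfolded protein accumulates. It binds heat shock elements, which are repeats of the unit GAA in alternating orientation.

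The promoters are shown first as a description of the 10 genes, and the matches were not tested against the changes in counts. A window from 250 bases before to 50 bases after the start was taken for each gene from RefSeq on GRCh38.p14, at the start nearest to that of the canonical transcript. These coincided in 9 genes, and for HSPH1 the RefSeq start lay 484 bases away. The searched forms were 2 facing units (GAANNTTC or TTCNNGAA) and, overlapping them, 3 units (either of these forms with a further GAA or TTC added at the same spacing), on both strands. Of the 10 windows, 6 held 2 facing units, against 13.5% of all 35116 promoters, and 2 held 3 units, against 0.490%. The 200 bases before the start of 5 genes follow, 5′ to 3′ on the strand of the gene, with the matches in capitals. HSPA1A and HSPA1B are given because they can hardly be told apart, HSPA8 and HSP90AA1 because they hold 3 units, and DNAJB1 because it holds 2 separate matches.
HSPA1A, chr6:31815343-31815542, plus strand: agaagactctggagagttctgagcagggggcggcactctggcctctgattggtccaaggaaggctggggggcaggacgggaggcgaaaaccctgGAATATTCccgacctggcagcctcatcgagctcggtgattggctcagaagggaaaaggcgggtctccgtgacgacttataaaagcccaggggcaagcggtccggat
HSPA1B, chr6:31827538-31827737, plus strand: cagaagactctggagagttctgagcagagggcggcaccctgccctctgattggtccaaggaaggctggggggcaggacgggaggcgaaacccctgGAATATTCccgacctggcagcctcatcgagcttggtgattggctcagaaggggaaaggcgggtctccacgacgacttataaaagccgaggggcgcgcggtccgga
HSPA8, chr11:123062137-123062336, minus strand: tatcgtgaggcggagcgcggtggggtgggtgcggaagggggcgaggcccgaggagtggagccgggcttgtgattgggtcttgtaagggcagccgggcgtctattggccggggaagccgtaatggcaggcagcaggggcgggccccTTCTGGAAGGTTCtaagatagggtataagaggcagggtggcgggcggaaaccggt
DNAJB1, chr19:14518398-14518597, minus strand: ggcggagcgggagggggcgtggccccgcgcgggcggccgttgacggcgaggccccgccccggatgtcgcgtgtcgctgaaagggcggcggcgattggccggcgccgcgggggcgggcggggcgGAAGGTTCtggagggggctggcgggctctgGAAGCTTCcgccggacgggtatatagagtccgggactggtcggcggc
HSP90AA1, chr14:102087045-102087244, minus strand: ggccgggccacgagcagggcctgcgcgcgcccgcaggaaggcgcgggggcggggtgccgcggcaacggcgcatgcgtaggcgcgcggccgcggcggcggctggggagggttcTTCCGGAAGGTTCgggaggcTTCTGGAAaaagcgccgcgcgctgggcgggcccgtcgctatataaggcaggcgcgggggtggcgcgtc

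The match started at position -106 in HSPA1A and at -105 in HSPA1B, counted from the start of transcription, with the same letters in both. HSPA8 held 3 units at -55 and again at -230, outside the stretch printed. HSP90AA1 held 3 units at -88 and 2 at -68, DNAJB1 held 2 units at -77 and at -47, and HSPB1 held 2 units at -182. The windows of HSPA4, HSPH1, BAG3 and HSP90AB1 held no exact match, and that of HSPH1 does not reach the start of its canonical transcript. Imperfect matches were not searched. A second annotated start of HSP90AB1, at 44247943 on chromosome 6, had 3 units at -165 and -112. A match is a stretch of letters, and binding of HSF1 was not measured.

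**Figure D1:**
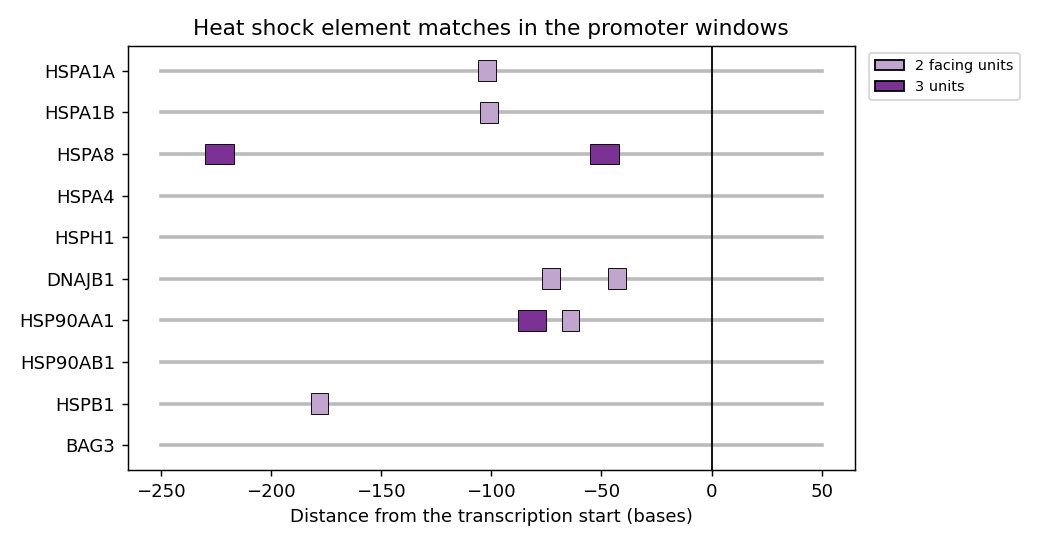
Positions of the matches in the 10 promoter windows, with the distance from the transcription start in bases on the x axis and one line per gene. Light bars are 2 facing units and dark bars 3 units, and HSPA4, HSPH1, HSP90AB1 and BAG3 have no bar. The window of HSPH1 does not reach the start of its canonical transcript.

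Library totals ran from 7875722 to 11362363 counts. Levels are given below as CPM, the counts of a gene scaled to a common library size after TMM normalization, with the SD over 2 libraries, and log2 fold changes are KO against WT. Adjusted p-values come from the quasi-likelihood fit of edgeR over all tested genes, corrected after Benjamini and Hochberg, and a gene was called at values under 0.05. THUMPD1 itself had 356 and 468 counts in the WT and 71 and 58 in the KO libraries, a log2 fold change of -2.93 (standard error 0.17, edgeR adjusted p = 1.26e-12). Replicates differed by more than sampling noise (chi-square per degree of freedom 4.08 within WT and 6.90 within KO) and by less than any WT and KO pair, of which the lowest was at 20.8. All 8 markers chosen for HEK293 cells, PAX2 and VIM among them, passed the filter on low counts. The log2 fold changes of -2.87 for NEFM, -0.35 for KRT18 and 0.34 for NEFL were called. LHX1 was called higher as well, at 2.12, but passed the filter only through the KO libraries (6 counts in each WT library, 37 and 27 in KO). None of the 9 markers of other cell types passed the filter, with at most 14 counts in a library and between 2.18 and 3.65 CPM in sum.

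In THUMPD1 KO cells 5 genes of the HSP70 cycle were called lower, while BAG3, the HSP90 genes and HSPB1 were not called. The difference between the called and the uncalled genes was not tested. HSPA1B, HSPH1, HSPA8, DNAJB1 and HSPA4 fell, by log2 fold changes from -1.04 to -0.24, and none of the 9 genes that could be tested rose, also at an unadjusted p under 0.05 in edgeR, DESeq2 or limma-voom. BAG3 and HSP90AA1 lay below 0 without passing the threshold, and HSP90AB1 and HSPB1 lay close to 0. Of the 9 members that could be tested, 5 were called lower, against 12.1% of the 13128 genes tested, and 0 higher, against 8.79%. In either direction 20.9% of all tested genes were called. The tested genes reach down to 1 CPM, and the shares over all of them were not matched to the levels of the members. Both KO libraries lay below both WT libraries in 7 of the 9, against 30.0% of all tested genes. The median log2 fold change of the 9 was -0.29, beside 0.01 over all tested genes. Together the 10 genes took 0.241% of the counts in each WT library, 0.219% in KO replicate 1 and 0.222% in KO replicate 2. As in any bulk sample, fewer cells that express a gene and less RNA per cell cannot be told apart.

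**Figure D2:**
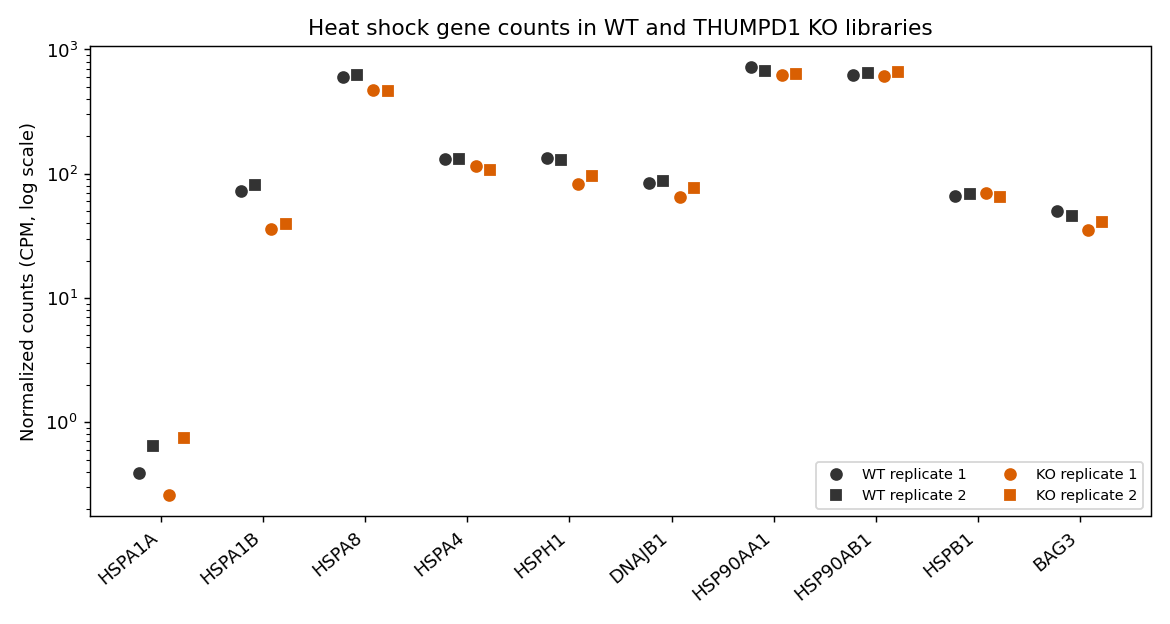
CPM on a log scale for the 10 genes, with circles for replicate 1, squares for replicate 2, dark symbols for WT and orange for KO. The KO symbols sit below the WT symbols in 7 genes and overlap with them in HSPA1A, HSP90AB1 and HSPB1.

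HSPA1A and HSPA1B encode the stress-inducible HSP70 and lie side by side on chromosome 6 (GRCh38, GENCODE 44), HSPA1A from 31815543 to 31817946 and HSPA1B from 31827738 to 31830254, both on the plus strand and each with 1 exon. Their coding sequences of 1923 bases differ at 4 positions, and the longest identical run is 1709 bases. Of all stretches of 50 bases in the HSPA1A transcript, 75.1% also occur in that of HSPA1B, and 71.6% the other way round. A read from the shared stretches belongs to neither gene for certain, and how the counting treated such reads is not given in the sources used here.
HSPA1B had 560 and 885 counts in the WT and 414 and 417 in the KO libraries. On the CPM scale this was 73.0 and 80.5 in WT and 35.7 and 39.1 in KO, or 76.7 ± 5.30 and 37.4 ± 2.40 (SD, n = 2 per genotype). Both KO libraries lay far below both WT libraries. The log2 fold change was -1.04 (standard error 0.10, edgeR adjusted p = 5.02e-08), so that KO cells had 48.8% of the WT level.
HSPA1A, by contrast, was listed with 3 and 7 counts in WT and 3 and 8 in KO libraries. These values are at or near the floor of 3 counts, which was worth 0.259 to 0.391 CPM, and HSPA1A did not pass the filter of 1 CPM in 2 libraries. The genotypes overlapped. With the filter dropped, its log2 fold change was -0.07 with a standard error of 1.14 (edgeR adjusted p = 0.974). With so few counts listed under HSPA1A, a fall or a rise of that gene by itself cannot be seen. Whether reads of HSPA1A were counted under HSPA1B or left out is not known, so the low counts do not give its level. Counted as 1 gene, the pair had a log2 fold change of -1.03 (standard error 0.10, edgeR adjusted p = 6.16e-08).

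HSPA8, the constitutive HSP70 of the cytosol (HSC70), is encoded on chromosome 11, minus strand, from 123057489 to 123063230. It had 597 and 628 CPM in the WT libraries and 472 and 466 in the KO libraries, and the KO libraries lay closer to each other than to either WT library. HSPA8 was called lower at -0.39 on the log2 scale (standard error 0.06, edgeR adjusted p = 3.27e-05). GENCODE 44 lists 17 pseudogenes named after HSPA8, and whether its reads are shared with them was not tested.
The share of the inducible pair in the HSP70 counts was lower in both KO libraries than in both WT libraries. HSPA1A plus HSPA1B made up 10.9% of the summed counts of HSPA1A, HSPA1B and HSPA8 in WT replicate 1 (95% Wilson interval 10.1 to 11.8) and 11.4% in WT replicate 2 (10.8 to 12.2), against 7.09% in KO replicate 1 (6.46 to 7.77) and 7.88% in KO replicate 2 (7.19 to 8.63). The intervals cover counting error only, and those of the genotypes do not overlap. The mean share differed by -3.70 percentage points, KO minus WT, at 11.2% ± 0.355 in WT and 7.49% ± 0.561 in KO (SD), and the exact permutation test of 2 libraries against 2 gave its smallest possible two-sided p of 0.333.

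Of the 4 genes that serve HSP70 as partners, HSPH1 had the lowest log2 fold change. HSPH1 (HSP110), a nucleotide exchange factor of HSP70 on chromosome 13 from 31134973 to 31162388 on the minus strand, had 134 and 129 CPM in WT and 82.6 and 96.4 CPM in KO libraries. Its log2 fold change was -0.56 (standard error 0.08, edgeR adjusted p = 2.01e-05), a KO level of 68.0% of WT.
HSPA4 (APG-2), the relative of HSPH1 on the plus strand of chromosome 5 from 133052013 to 133106449, had 130 and 131 CPM in WT and 115 and 106 CPM in KO libraries. The coding sequences of these exchange factors share 66.4% of aligned bases, with no identical run above 17 bases. HSPA4 passed the threshold at a log2 fold change of -0.24 (standard error 0.07, edgeR adjusted p = 0.0239), but lost its call with scaling by library size alone, with DESeq2, with limma-voom, and without WT replicate 2 or KO replicate 2.
DNAJB1 (HSP40), the J-domain partner that loads HSP70, is encoded on chromosome 19, minus strand, from 14514769 to 14560391. It had 84.2 and 87.8 CPM in WT and 64.5 and 76.7 CPM in KO libraries, where KO replicate 2 stood between WT and KO replicate 1. Its log2 fold change of -0.29 (standard error 0.09, edgeR adjusted p = 0.0278) was lost under the same 3 alternatives and without WT replicate 2 or KO replicate 1, the last of which brought it to -0.16. The gene TECR overlaps that of DNAJB1 on the opposite strand, and whether the counting used the strand is not given in the sources used here.
BAG3, a co-chaperone that links HSP70 to selective autophagy, lies on the plus strand of chromosome 10 from 119651380 to 119677819. It had 49.6 and 45.5 CPM in WT and 35.3 and 40.7 CPM in KO libraries, with both KO values below both WT values. Its log2 fold change of -0.32 (standard error 0.12, 95% interval -0.56 to -0.08) stood just outside the threshold (edgeR adjusted p = 0.0503), beside that of DNAJB1 just inside it.

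Neither HSP90 gene was called. HSP90AA1, the more stress-inducible isoform, is encoded on chromosome 14, minus strand, from 102080742 to 102139699. It had 718 and 670 CPM in WT and 623 and 635 CPM in KO libraries. The genotypes did not overlap, but the gap between them was smaller than that between the WT libraries, and the log2 fold change of -0.14 (standard error 0.06, 95% interval -0.26 to -0.02) was not called (edgeR adjusted p = 0.0937). The gene WDR20 overlaps that of HSP90AA1 on the opposite strand.
HSP90AB1, the constitutive isoform on the plus strand of chromosome 6 from 44246166 to 44253888, had 618 and 644 CPM in WT and 615 and 654 CPM in KO libraries. Each KO library lay outside the WT pair on a different side. The log2 fold change was 0.01 (95% interval -0.12 to 0.13, edgeR adjusted p = 0.950), an interval that leaves room for a change of at most 0.13 in either direction.
The coding sequences of the isoforms share 76.0% of aligned bases with no identical run above 23 bases, and GENCODE 44 lists 5 pseudogenes named after HSP90AA1 and 6 after HSP90AB1. Of the counts of both, HSP90AA1 took 53.8% (95% Wilson interval 52.8 to 54.7) and 51.0% (50.2 to 51.8) in the WT libraries and 50.4% (49.5 to 51.2) and 49.3% (48.4 to 50.1) in the KO libraries. The means, 52.4% ± 1.97 and 49.8% ± 0.768 (SD), differed by little more than the SD within WT. Both KO shares lay below both WT shares, but the intervals of WT replicate 2 and KO replicate 1 overlap. The exact permutation test again gave 0.333, the smallest two-sided p it can give with 2 libraries against 2.

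HSPB1 (HSP27), the small heat shock protein on the plus strand of chromosome 7 from 76302673 to 76304295, had 66.4 and 69.1 CPM in WT and 69.6 and 64.4 CPM in KO libraries, so that the KO values lay on either side of the WT values. The log2 fold change was -0.02 (95% interval -0.21 to 0.17, edgeR adjusted p = 0.914). Its sign turned with the scaling, to 0.07 by library size alone.

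**Figure D3:**
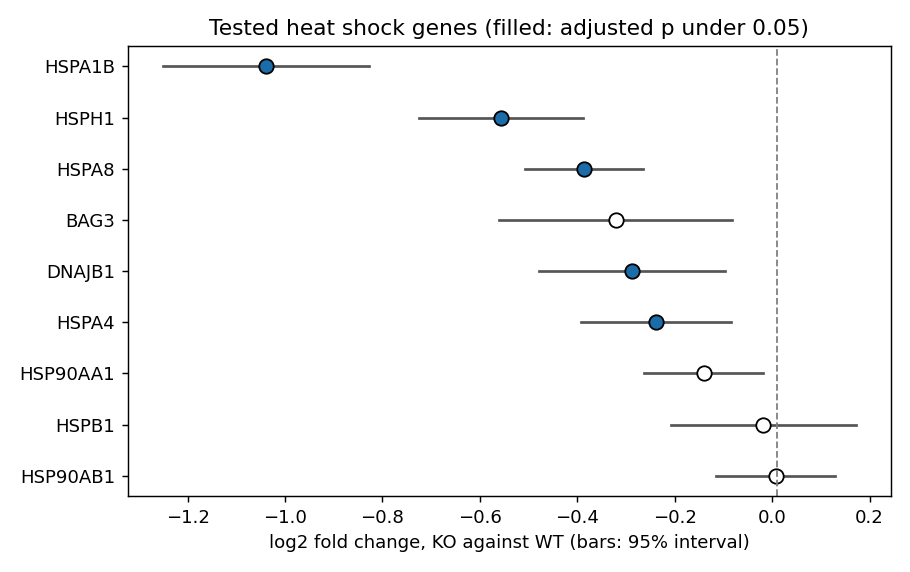
log2 fold changes of the 9 tested genes, KO against WT, with 95% intervals as bars, filled symbols for adjusted p under 0.05 and a dashed line at the median of all tested genes (0.01). The HSP70 gene HSPA1B stands apart at -1.04, and HSPB1 and HSP90AB1 sit on the line.

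Levels can be compared between genes only per length, and were divided by the kilobases of the canonical transcript. HSPA8 was the most abundant of the 10 genes in both WT libraries, with 264 and 277 CPM per kb, above HSP90AB1 with 242 and 252. In the KO libraries the order was turned, with 241 and 256 CPM per kb for HSP90AB1 and 208 and 206 for HSPA8. HSP90AA1 followed in each genotype, at 215 ± 10.6 in WT and 195 ± 2.60 CPM per kb in KO (SD, n = 2 per genotype). HSPB1 came next at 87.2 ± 2.40 and 86.2 ± 4.73, and its mean over the 4 libraries moved from 86.7 to 46.3 with the longest transcript in place of the canonical one.
The others lay below 40 CPM per kb. In WT the order was DNAJB1 (38.4 ± 1.15), HSPA1B (30.5 ± 2.10), HSPA4 (27.4 ± 0.131), HSPH1 (25.1 ± 0.630) and BAG3 (18.6 ± 1.16). None of these neighbours overlapped in its library values. In KO cells HSPA1B, at 14.9 ± 0.953, stood beside BAG3, with 13.8 and 15.9 in its libraries, and below HSPH1, at 17.1 ± 1.87, and the library values of BAG3 overlapped with those of HSPA1B and HSPH1. With the longest transcript, DNAJB1 dropped from 34.9 to 18.3 CPM per kb over the 4 libraries, below HSPH1 at 21.1.

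The wider system was read from 7 lists of other genes, 72 in all, of which 59 could be tested. Of these, 11 were lower and 3 higher in KO cells, with a median log2 fold change of -0.10. The 3 higher genes were DNAJB4, HMOX1 and CLU. DESeq2 called none of the listed genes higher, against 3 at an unadjusted p under 0.05, and library size alone called 6, and without WT replicate 1, KO replicate 1 or KO replicate 2 there was 1. The shares to set beside them are again 12.1% and 8.79% of all tested genes. Chromosomes 16 and 22 had medians of -0.44 and -0.42 in this comparison, while those of the 21 other chromosomes lay between -0.06 and 0.10. None of the 10 heat shock genes lies on either of them. Without the listed genes that do, 8 of 53 were lower and 2 higher. The shares of 12.1% and 8.79% include the genes of both chromosomes and were not computed without them. The part of these chromosomes in the values of single genes was not tested.
Among 9 genes of HSP70 exchange and handover, 3 were lower and none higher, with a median of -0.28. They were STUB1, the ubiquitin ligase CHIP, at -0.77 (edgeR adjusted p = 5.52e-07), STIP1 (HOP), which passes clients from HSP70 to HSP90, at -0.37 (edgeR adjusted p = 9.74e-05), and ST13 (HIP), which stabilizes client binding by HSP70, at -0.35 (edgeR adjusted p = 0.000265). STUB1 lies on chromosome 16 and ST13 on chromosome 22, so that STIP1 was the only one called of the 7 genes elsewhere. The median of those 7 genes was -0.10. STIP1 had 367 and 365 CPM in WT and 272 and 293 CPM in KO libraries, with no overlap.
Of 13 tested J-domain genes besides DNAJB1, 4 were lower and 1 higher (median -0.05). DNAJB2 at -0.76, DNAJC6 (auxilin, which uncoats clathrin vesicles with HSC70) at -0.65 and DNAJA2 on chromosome 16 at -0.46 fell most, and DNAJB4 rose at 0.54 (edgeR adjusted p = 0.0404).
Of 16 tested HSP90 co-chaperones, 3 were lower and none higher, with a median of -0.18. CDC37, which brings kinases to HSP90, had 268 and 269 CPM in WT and 204 and 218 CPM in KO libraries (log2 fold change -0.35, edgeR adjusted p = 0.000268). AHSA1, which stimulates the ATPase of HSP90, was at -0.29 (edgeR adjusted p = 0.00430), and FKBP4, an immunophilin of steroid receptor complexes, at -0.22 (edgeR adjusted p = 0.0369).

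None of the genes of heat shock factors was called by edgeR, DESeq2 or limma-voom, and at an unadjusted p under 0.05 edgeR gave 1, HSF2. HSF1 had 96.8 and 113 CPM in WT and 103 and 106 CPM in KO libraries. Its log2 fold change was -0.02 (standard error 0.08, 95% interval -0.19 to 0.15, edgeR adjusted p = 0.911). HSF2 was at 0.27 (edgeR adjusted p = 0.110), HSF4 at -0.75 on 7 to 17 counts (edgeR adjusted p = 0.466), HSBP1, which binds the trimers of HSF1, at -0.06 (edgeR adjusted p = 0.557) and HSBP1L1 at 0.18 (edgeR adjusted p = 0.704). These were the 5 tested, and HSF5, with at most 3 counts, was not tested. The activity of HSF1 lies in its trimers and its modification, which RNA counts do not measure.
Of 17 tested heat-inducible HSF1 targets outside the 10 genes, 5 were lower and 2 higher, with a median of -0.17. STIP1 and AHSA1 are among them, as is DNAJA1, the J-domain partner with 210 and 201 CPM in WT and 161 and 176 CPM in KO libraries (log2 fold change -0.29, edgeR adjusted p = 0.00303). The higher ones were HMOX1, heme oxygenase, at 0.59 (edgeR adjusted p = 0.0137) and CLU, the extracellular chaperone clusterin, at 0.59 (edgeR adjusted p = 0.0225). Both also answer to other stress pathways, whose part here was not tested. HMOX1 lies on chromosome 22.
Of the other HSP70 and HSP110 genes listed, all outside the ER and mitochondria, 5 were tested and none was called by edgeR. At an unadjusted p under 0.05 there was 1, which limma-voom called higher and DESeq2 did not. It was HSPA14, named after its values were seen. HSPA6, singled out after its values were seen as the HSP70 that is almost silent without heat, had 0 and 2 counts in WT and 4 and 5 in KO libraries, at or near the floor. Of 8 other small heat shock genes, HSPB8 alone could be tested, and was not called (log2 fold change 0.82, edgeR adjusted p = 0.381).

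**Figure D4:**
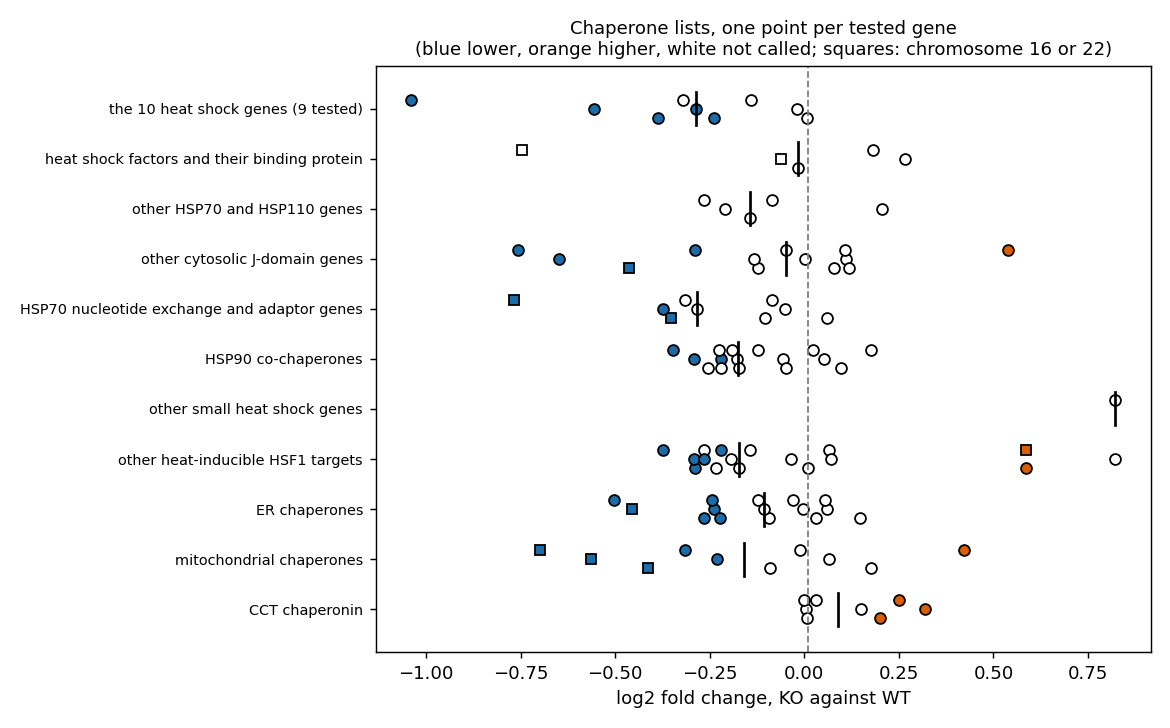
log2 fold changes of all tested genes of each list, one symbol per gene, with a short vertical bar at the median of the list and a dashed line at the median of all genes (0.01). Blue symbols were called lower, orange symbols higher and white symbols neither, and squares mark genes on chromosomes 16 and 22. The first line, with a median of -0.29, holds the 9 tested heat shock genes.

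Counts for chaperones of the ER and mitochondria and for the cytosolic chaperonin CCT were not tested against those above. Of 15 ER chaperones, 6 were lower and none higher (median -0.11), with DNAJB9 (-0.50), SDF2L1 on chromosome 22 (-0.46) and the calcium-binding lectin CALR (-0.26) the lowest. HSPA5 (BiP), the HSP70 of the ER, was singled out after its values were seen as the counterpart of HSPA8, at -0.24 (edgeR adjusted p = 0.00582). Of 10 mitochondrial chaperones and proteases, 5 were lower and 1 higher, and without those on chromosomes 16 and 22 it was 2 and 1 of 7, with a median of -0.01. DNAJA3 (-0.70), HSCB (-0.56) and TRAP1, the HSP90 of mitochondria (-0.41), all lie on those chromosomes, and the exchange factor GRPEL2 rose at 0.42. Of the 8 subunits of CCT, the ring that folds actin and tubulin in the cytosol, 3 were higher (CCT8 at 0.32, TCP1 at 0.25 and CCT7 at 0.20), 5 were not called and none was lower, with a median of 0.09.

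**Figure D5:**
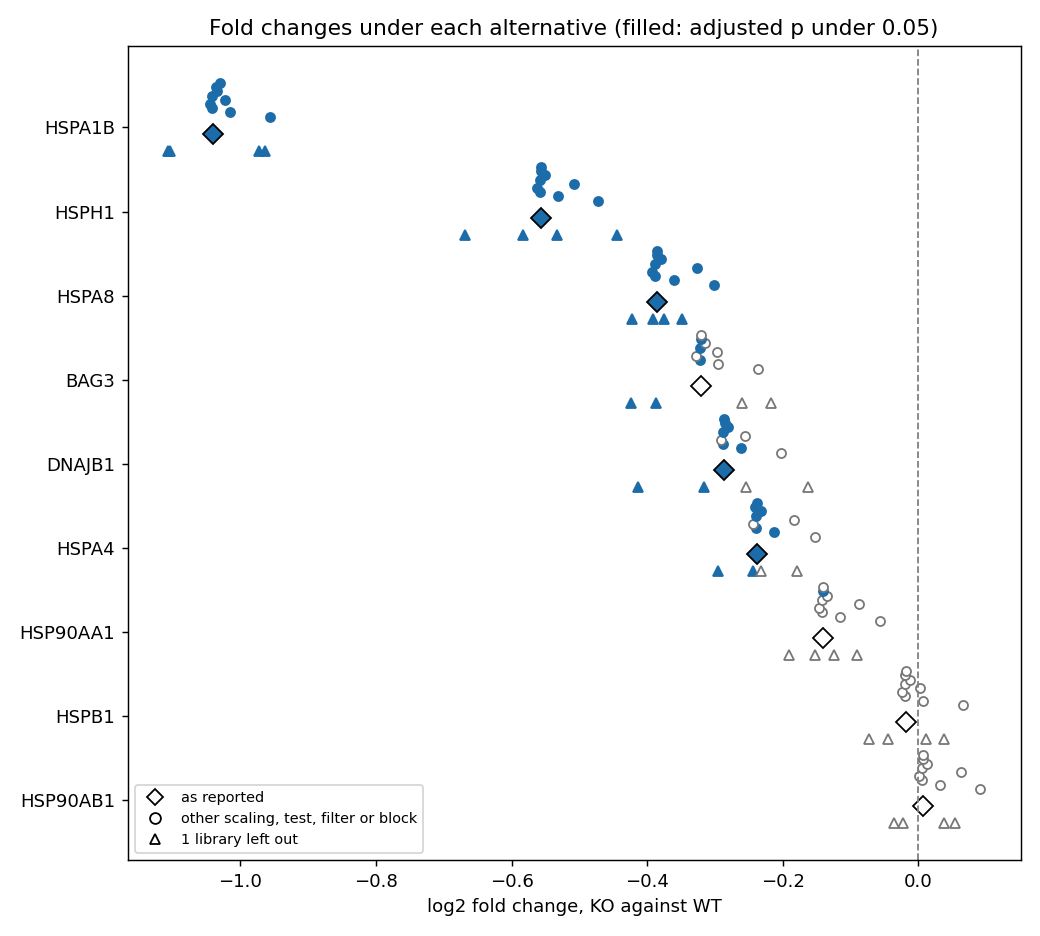
log2 fold changes of the 9 tested genes in the analysis as reported (diamonds), under other scaling, tests, filters or a replicate block (circles, stacked by alternative) and with 1 library left out (triangles), filled where the adjusted p was under 0.05. HSPA1B, HSPH1 and HSPA8 are filled throughout, and BAG3, DNAJB1 and HSPA4 are filled in part, and HSP90AA1 is filled for 1 alternative.

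HSPA1B, HSPH1 and HSPA8 were called lower under all 9 alternatives and with each library left out, between -1.11 and -0.96, between -0.67 and -0.44 and between -0.42 and -0.30. DNAJB1 and HSPA4 were each called under 6 of the 9 alternatives and with 2 of the 4 libraries left out, and BAG3 under 3 of 9 and with 2 of 4. HSP90AB1 and HSPB1 were called under none, with an adjusted p of at least 0.275 and 0.651. Of the 9 alternatives, 1 counted HSPA1A and HSPA1B as 1 gene. It left the counts of all other genes unchanged, so that for them it only repeats the reported analysis.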

How the data were processed

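Per the labels, total RNA of WT and THUMPD1 KO cells was made into paired-end libraries with a Zymo-Seq RiboFree kit, and the submitters' processing notes name hg19. The authors deposited raw counts per gene symbol, not normalized. The study's methods for RNA-seq name another kit, STAR and RSEM on GRCh38, and 3 samples per genotype, and whether the 2 libraries per genotype analysed here belong to them is not given in the sources used here. The counter behind these counts is not given in the sources used here. A deposited table of the authors' own comparison of KO with WT (fold changes, errors and p-values) was not used.

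Groups and replicate numbers came from sample titles, which match the count columns. Counts were tested in R 4.3.3 with edgeR 4.0.16 (glmQLFit, glmQLFTest, TMM) on the 13128 genes that reached 1 CPM in 2 or more libraries, and p-values were adjusted over all of them after Benjamini and Hochberg, with a threshold of 0.05. Standard errors were derived from the quasi-likelihood F statistic. The test was checked on simulated counts. The alternatives used DESeq2 1.42.0, limma 3.58.1 (voom with quantile normalization, as in the study's methods), other scalings and filters, the replicate number as a block, and each library left out, where the lone library of a genotype is assumed to vary like the others.

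The 10 genes and all lists were chosen with earlier results of these data known. Named were all 10, THUMPD1, the heat shock factors, and up to 3 rises and 3 falls per list with adjusted p under 0.05. Listed genes that passed no threshold, the markers, HSPA5 and HSPE1-MOB4 were named outside this rule, after their values were seen. No gene was named for likeness of pattern, since 4 libraries of 2 genotypes cannot rank patterns. Positions come from GENCODE 44 on GRCh38 by symbol, with 13011 tested genes placed, partly through RefSeq synonyms. All 10 genes matched the RefSeq promoter table (GRCh38.p14). Other steps used Biopython 1.88, SciPy 1.17.1, pandas 2.3.3, matplotlib 3.10.9 and NumPy 2.4.6 under Python 3.11.15. Wilson intervals and floors cover counting error only, while the intervals of fold changes include the spread between libraries.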

Additional observations from a re-analysis of the deposited data

How the results depend on the processing

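The number of heat shock genes called lower, 5, became 3 with library size alone, with DESeq2 and with limma-voom, which left HSPA1B, HSPH1 and HSPA8; otherwise it lay between 5 and 7, and between 4 and 5 with a library left out. With library size alone the median over all tested genes was 0.09 in place of 0.01. Over all genes, 2748 calls became 1646 with DESeq2 and ran from 1617 (without KO replicate 1) to 2599 with a library left out, and the cause was not tested. The share of lower calls among all calls was 58.0% and fell to 35.8% with library size alone. The 14 calls of the 7 lists ran from 8 (without KO replicate 1) to 15 with a library left out. The share of HSPA1A and HSPA1B in the HSP70 counts stayed lower in KO, from -4.10 to -3.31 percentage points, and that of HSP90AA1 from -3.95 (without WT replicate 2) to -1.16 (without WT replicate 1).

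HSP90AB1, at 0.01, turned to -0.023 when WT replicate 1 was left out and to -0.036 when KO replicate 2 was, and reached 0.054 without KO replicate 1. HSPB1, at -0.02, was at 0.066 with library size alone, 0.0070 with the upper quartile, 0.0019 with limma-voom, 0.012 without WT replicate 2 and 0.038 without KO replicate 2, and at -0.073 without KO replicate 1. With the longest transcript, levels per kb moved from 34.9 to 18.3 for DNAJB1, 205 to 189 for HSP90AA1, 248 to 237 for HSP90AB1 and 86.7 to 46.3 for HSPB1.

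The labels give the genotypes the same replicate numbers, but deviations of same-numbered libraries correlated at 0.03 only across genes, and 2 pairs do not show a pairing. With the replicate number as a block, 7 heat shock genes were called lower, HSP90AA1 (adjusted p = 0.0371 from edgeR) and BAG3 (adjusted p = 0.0277) besides the 5, with 3222 calls over all genes and 18 in the lists. Leaving out genes of chromosomes 16 and 22, an alternative chosen after seeing the data, left 10 list calls.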

Other observations

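HSPE1, the mitochondrial co-chaperonin listed with the HSF1 targets, was not analysed here under its own symbol. The readthrough gene HSPE1-MOB4, chosen after its values were seen, was counted 2309 and 3456 times in the WT libraries and 2789 and 2923 times in those of KO cells, and its log2 fold change was -0.26 with a standard error of 0.07 (edgeR, adjusted p = 0.00693), and reads of HSPE1 cannot be told apart from its own. NUDC, a co-chaperone of HSP90, and CRYAB, a small heat shock gene, were listed at 0 in all 4 libraries. Whether such a 0 means absent RNA or a symbol that the counting missed was not tested.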
